A study of Mus musculus with 16 samples.

Results

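A total of 6279 regions of open chromatin in pancreatic islets carried a peak in both samples of the wild-derived mouse strain CAST and in no sample of 7 other strains. They were chosen by merging the overlapping peaks of 16 sample lists on chromosomes 1 to 19 and keeping regions called in both CAST samples and in none of the other 14. The 6279 regions were 1.75% of the 358621 merged regions and 5.78% of the 108590 regions called in both CAST samples. The peak calls themselves chose these CAST-only regions, so their number and their signals are given as a description with no test.

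The study used ATAC-seq, which marks accessible DNA by where a transposase inserts sequencing adapters, to ask how islet chromatin differs between the founder strains of the Diversity Outbred mouse population. The 8 strains were labelled 129S1_SvImJ (129), A_J (AJ), C57BL/6J (B6), CAST_EiJ (CAST), NOD_ShiLtJ (NOD), NZO_HlLtJ (NZO), PWK_PhJ (PWK) and WSB_EiJ (WSB). Each was represented by 1 female and 1 male sample of 50 islets, untreated and of an age that the labels do not give. How many animals gave the islets of a sample was not given in the sources used here, so the only replicate spread is that between the sexes of each strain. All reads of the lists analysed here were aligned to the B6 reference genome, mm10, so DNA that CAST carries and the reference lacks could not hold a peak.

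Islets hold the insulin-secreting beta cells, and their promoters and enhancers are bound by factors such as PDX1, NKX6-1, FOXA2 and NEUROD1, which keep the DNA free of nucleosomes. CAST descends from the subspecies Mus musculus castaneus and differs from the B6 reference at many bases, insertions and duplications. A base change can create or remove the binding site of a factor, and a duplicated stretch can bring reads from several copies to the single copy of the reference.

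The sequences of 7 CAST-only regions are shown, 3 among the strongest, 1 at a promoter and 3 near genes of beta cell identity, granule exocytosis and diabetes risk. They are the GRCm38 (mm10) reference on the plus strand, up to 300 bases from the centre of the region, and not CAST sequence. Capitals mark matches on either strand to 15 short motifs of islet and general factors, among them AP-1 (TGANTCA), the NEUROD E-box (CAGATG) and YY1 (AAGATGG).
intergenic, nearest protein-coding gene Atp23, chr10:126511621-126511804: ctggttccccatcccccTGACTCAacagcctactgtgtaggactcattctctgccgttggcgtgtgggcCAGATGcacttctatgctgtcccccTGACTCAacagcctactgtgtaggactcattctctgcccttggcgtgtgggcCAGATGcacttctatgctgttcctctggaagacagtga
intron of Srl, chr16:4495921-4496220: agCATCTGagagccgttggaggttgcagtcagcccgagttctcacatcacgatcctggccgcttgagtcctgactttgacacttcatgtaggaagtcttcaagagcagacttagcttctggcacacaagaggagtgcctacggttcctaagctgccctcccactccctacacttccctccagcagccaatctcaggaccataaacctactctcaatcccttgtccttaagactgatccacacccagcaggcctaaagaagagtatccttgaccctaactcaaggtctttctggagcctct
intergenic, nearest protein-coding gene Aldh1a3, chr7:66457749-66458048: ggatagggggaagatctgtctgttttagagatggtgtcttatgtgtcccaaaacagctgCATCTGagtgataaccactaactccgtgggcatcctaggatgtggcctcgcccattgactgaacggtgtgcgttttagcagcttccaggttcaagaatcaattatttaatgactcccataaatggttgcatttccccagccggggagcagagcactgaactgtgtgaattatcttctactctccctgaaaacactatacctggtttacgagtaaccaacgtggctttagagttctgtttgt
Dock2 promoter, chr11:34231872-34232171: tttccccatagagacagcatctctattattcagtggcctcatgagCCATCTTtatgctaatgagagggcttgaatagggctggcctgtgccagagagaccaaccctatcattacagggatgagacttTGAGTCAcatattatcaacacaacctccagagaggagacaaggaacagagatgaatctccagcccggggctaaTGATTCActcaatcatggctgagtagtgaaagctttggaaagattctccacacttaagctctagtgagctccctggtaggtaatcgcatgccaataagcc
intron of 9030622O22Rik, nearest protein-coding gene Foxa2, chr2:147954330-147954502: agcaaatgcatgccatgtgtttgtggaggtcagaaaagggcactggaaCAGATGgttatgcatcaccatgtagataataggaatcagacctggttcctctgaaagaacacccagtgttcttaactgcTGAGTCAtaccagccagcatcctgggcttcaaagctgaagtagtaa
intron of Gm13791, nearest protein-coding gene Syt13, chr2:92895325-92895624: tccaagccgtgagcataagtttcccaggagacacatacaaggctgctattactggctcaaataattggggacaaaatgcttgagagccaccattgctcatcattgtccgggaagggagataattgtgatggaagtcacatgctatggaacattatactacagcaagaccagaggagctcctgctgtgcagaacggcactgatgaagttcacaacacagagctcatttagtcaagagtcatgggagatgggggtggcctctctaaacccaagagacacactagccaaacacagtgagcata
intergenic, nearest protein-coding gene C2cd4b, chr9:67693869-67694052: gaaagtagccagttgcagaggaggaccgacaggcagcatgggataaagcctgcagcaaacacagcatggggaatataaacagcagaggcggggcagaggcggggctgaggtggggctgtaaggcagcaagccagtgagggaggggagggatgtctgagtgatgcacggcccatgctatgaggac
The region nearest to Atp23 repeated itself. Shifted by 77 bases, 81.3% of the 107 bases compared were the same, and each repeat held an AP-1 and an E-box match. The strongest 2 regions lie in 3′ untranslated stretches of genes and their sequence is not shown.

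CAST gave the most single-strain regions. By the same rule WSB had 3541, PWK had 3218, NZO had 1125, and B6, NOD, AJ and 129 had 381, 233, 214 and 187. The CAST lists were not the longest, with 140841 peaks in the female and 134813 in the male, inside a range of 77887 (AJ male) to 167051 (WSB female) autosomal peaks. Their signal was among the highest. The median summit signal over the 40930 regions called in all 16 samples, termed shared regions here, was 106 in the CAST female and 136 in the CAST male and 32.0 (PWK male) to 106 (WSB female) in the other 14. When every list was cut to its 77887 strongest peaks, CAST had 2769 regions of its own, PWK 2010, WSB 788 and NZO 676, while NOD, AJ and 129 rose to 515, 354 and 261. CAST was thus first under both list lengths, but by a smaller margin over PWK. The regions differed between both settings, since 1118 of the 2769 (40.4%) overlapped 1 of the 6279 (17.8% of these). The part of the higher CAST signal in the count was not tested beyond this. The count was also 2769 in the upper 50% of every list, 29012 where 1 CAST sample was enough, and 12684 in the strain lists at an irreproducible discovery rate (IDR) of 0.05 or less.

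**Figure D1:**
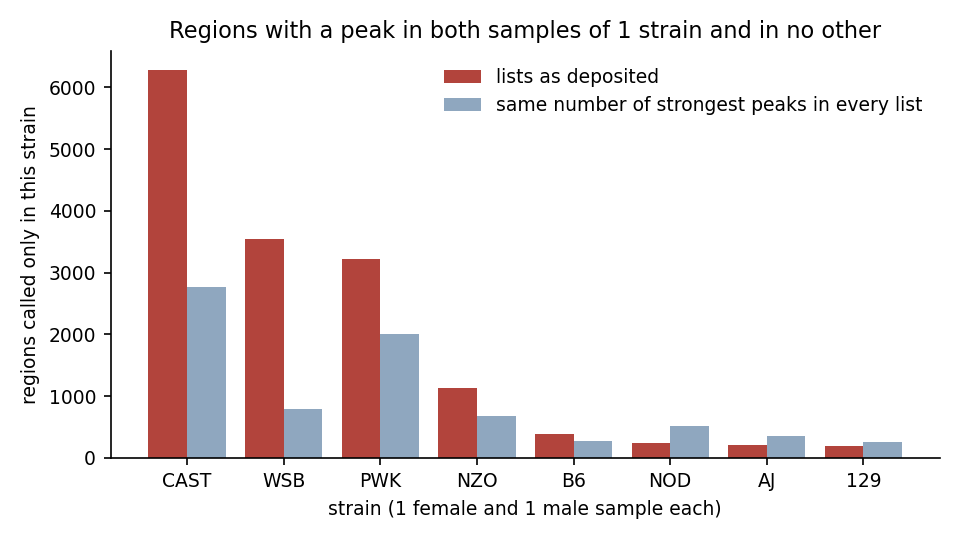
Number of regions called in both samples of a strain and in no other strain, for the 8 strains, with the lists as deposited (red) and with the 77887 strongest peaks of every list (blue). CAST had 6279 and 2769 such regions, more than any other strain in either setting.

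Most CAST-only regions were weak. To compare samples, the summit signal was divided by the sample's median over shared regions, so that 1 is the level of a typical shared region. On this scale the CAST-only regions had a median of 0.170 in the female, with 5% below 0.0755 and 5% above 0.462, and a median of 0.154 in the male, with 5% below 0.0735 and 5% above 0.427. The unscaled medians were 18 and 21. Regions called in the CAST female and nowhere else, just outside the rule, had a median of 0.104 (14308 regions), and those of the CAST male had 0.103 (8425 regions). Regions called in both CAST samples and 1 of the other 14 had medians of 0.179 and 0.162 (4707 regions). The members therefore lay above the regions of 1 CAST sample and slightly below those that 1 more sample also held. Both CAST samples gave a scaled signal above 0.5 in 178 regions and above 1 in 43.

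The female and the male signals correlated less over the members than over the shared regions. Across regions, the Pearson correlation of log2 signals between both CAST samples was 0.765 over the 6279 members and 0.973 over the 40930 shared regions, and the members span a much narrower range of signals. The female was higher by a median of 0.12 on the log2 scale, with an SD of 0.53, and 93.1% of members were within 2-fold. In the IDR analysis of the authors, which scores how well peak ranks repeat between the sexes of a strain, 1393 members (22.2%) reached 0.05, against 95.4% of shared regions.

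**Figure D2:**
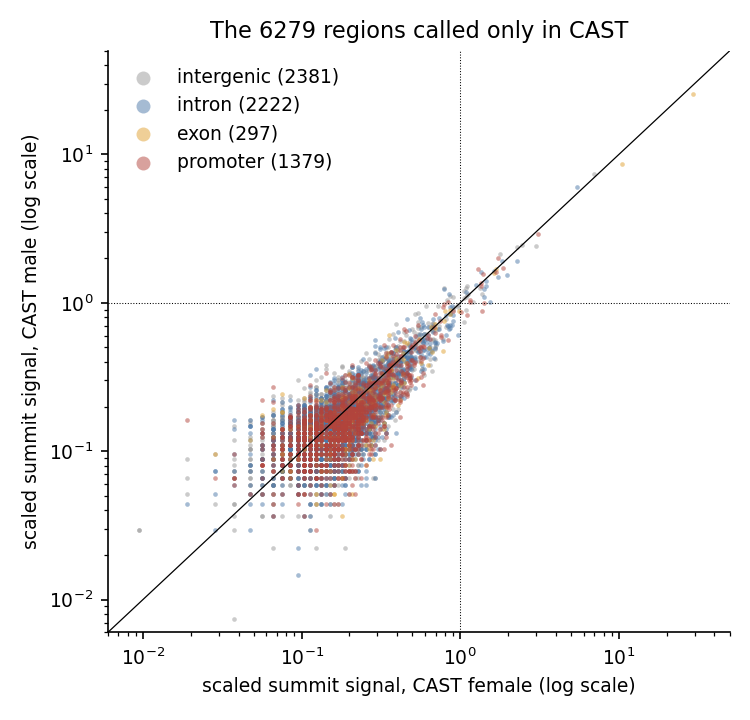
Scaled summit signal of each of the 6279 CAST-only regions in the CAST female and the CAST male, both on log scales, coloured by annotation class, where 1 (dotted) is the median shared region and the line marks equal signal. Nearly all points lie below 1, and 43 lie above it in both samples.

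The strongest CAST-only region lay in the 3′ untranslated region of Cers5, which encodes a ceramide synthase (chr15:99735604-99736133). Its summit signal was 3101 in the female and 3464 in the male, or 29.3 and 25.5 times the median shared region. The second lay in the 3′ untranslated region of Ubqln1, which encodes a ubiquitin-binding shuttle of the proteasome (chr13:58177515-58177880), at 10.4 and 8.65. Both samples agreed on these levels within 1.5-fold, and how many copies of these sequences CAST carries was not analysed here. The nearest peak of another strain was 9.45 kb away from the first and 2.92 kb away from the second.

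The repeated sequence nearest to Atp23, 390 kb from that gene, reached 6.99 in the female and 7.33 in the male (chr10:126511621-126511804). The region in an intron of Srl, which encodes a calcium-binding protein of the sarcoplasmic reticulum, reached 5.45 and 5.99 (chr16:4495826-4496316). Beside Trav22, a variable segment of the T cell receptor alpha chain, a region wholly of repeat-masked sequence reached 3.09 and 2.9 (chr14:53929669-53930359), and a second one reached 2.27 and 1.90 (chr14:53935000-53936385). The central 31 bases of these last regions occur 8 and 812 times in the reference, so their reads could come from elsewhere in the genome.

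An intergenic region 30.0 kb from Aldh1a3, which encodes a retinaldehyde dehydrogenase known from dedifferentiating beta cells, had 2.44 and 2.46 (chr7:66457541-66458257). An intergenic region 380 kb from Tlr4, the receptor of bacterial lipopolysaccharide, had 3.02 and 2.40, and its centre occurs 138 times in the reference. The remaining regions of the top 12 lay near Gm49336 (2.28 and 2.38), in Fam155a (1.83 and 1.91), near Plxdc2 (1.79 and 2.12) and in Lhx6, which encodes a LIM homeobox factor (1.74 and 2.01). Of these 12, 9 have a centre found once in the reference, which says nothing of copies in CAST.

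At protein-coding promoters the signals were lower. The strongest member within 1 kb of such a start site was 150 bases from a start of Abcd4, which encodes a lysosomal vitamin B12 transporter, at 1.39 in the female and 1.57 in the male (chr12:84612055-84613468). The region 60 bases from the start of Dock2, an activator of Rac in leukocytes, had 1.30 and 1.69 (chr11:34231730-34232314) and held 2 AP-1 matches. Gsdma2, of the pore-forming gasdermins, had 1.38 and 0.875, and Ifnl2, an interferon lambda, had 0.896 and 0.875. Gm19402, Marc2, Abcc5 and Lcn5 had 0.588 to 0.755 over both samples. None of these is a defining gene of islet endocrine cells.

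The labelled tissue was checked on promoters. Of 12 islet endocrine genes, 10 had a promoter peak in all 16 samples, and Sst and Ppy had none in CAST. The summed scaled signal of these promoters was 31.1 and 30.3 in CAST and 24.0 to 35.1 in the other 14. The sums for acinar, duct, endothelial, leukocyte and fibroblast markers in CAST also lay inside the ranges of the other samples. Both CAST samples had a peak at 5 of 6 duct promoters (all but Sox9), 2 of 5 fibroblast promoters, 1 of 8 acinar promoters, 1 of 6 endothelial promoters and 1 of 6 leukocyte promoters. The part of these cells in the CAST-only regions was not tested. Promoter peaks were absent in CAST at Cpa1, Prss2 and Ptf1a of acinar cells, at Pecam1 and Cdh5 of endothelial cells, and at Cd3e of T lymphocytes. These are bulk samples, in which fewer cells of a type and less accessible DNA per cell cannot be told apart.

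Some CAST-only regions were assigned to genes of beta cell function, at shares close to that of all regions. Assigned to the nearest protein-coding start site, the members fell to 4020 of 20780 genes (19.3%). Of 39 genes of beta cell hormones and identity, 17 had at least 1 member, and 23 of their 1299 regions were members (1.77%, against the background of 1.75%). None of the 23 was above the highest median of another sample's list (0.564, AJ male), a level that 134 members passed. The strongest was 91.0 kb from Foxa2, which encodes a pioneer factor of endoderm, at 0.311 in the female and 0.397 in the male (chr2:147954330-147954502). A region 223 kb from Nkx6-1, a homeobox factor of beta cells, had 0.443 and 0.294. A region 1029 bases from a start of St18, a zinc finger gene, had 0.330 and 0.265, and an intronic region of Esrrg, an orphan nuclear receptor of mature beta cells, had 0.226 and 0.228.

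Genes of insulin granule exocytosis held 20 members among 981 regions (2.04%). Syt13, an atypical synaptotagmin, led with 0.481 in the female and 0.463 in the male (chr2:92895193-92895756). Cadps, which primes dense-core granules, had 5 members, of which the strongest had 0.358 and 0.294 and a centre found 10 times in the reference. Rims2, a scaffold of docked granules, had 0.377 and 0.272, and Doc2b, a calcium sensor, had a member on its start site at 0.292 and 0.265. Beta cell ion channels held 30 members of 1775 regions (1.69%), 7 of them at Cacna1a, which encodes a voltage-gated calcium channel, and 4 at Kcnma1, the large-conductance potassium channel. The strongest of these was assigned to Kcnc1 and lay 69.4 kb from it, at 0.302 and 0.294.

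Genes named by human type 2 diabetes association studies held 44 members of 3066 regions (1.44%). C2cd4b and Glis3 had 4 each. The strongest, 65.4 kb from C2cd4b, had 0.358 in the female and 0.390 in the male (chr9:67693869-67694052), and a region in an intron of Cdkal1, a tRNA-modifying enzyme, had 0.443 and 0.294. Glucose and lipid metabolism held 11 of 785 regions (1.40%). Among them was a region in Elovl6, a fatty acid elongase, at 0.613 and 0.566, which was the only member of that list above 0.564, and a region 151 bases from a start of Acacb, an acetyl-CoA carboxylase, at 0.349 and 0.257. Insulin and IGF signalling held 13 of 1086 regions (1.20%), led by a region 1795 bases from a start of Tsc1, a brake on mTOR, at 0.557 and 0.434. Genes of alpha, delta and PP cells held 6 of 496 (1.21%), with regions near Etv1 and Rfx6 at 0.189 to 0.412. Clock and immediate early genes held 7 of 540 (1.30%), led by a region in Rora, a clock nuclear receptor, at 0.623 and 0.610.

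Lists of other pancreatic cells had 8 of 470 regions (1.70%) for acinar, 3 of 187 (1.60%) for duct, 4 of 231 (1.73%) for endothelial, 4 of 225 (1.78%) for fibroblast and 0 of 176 for leukocyte genes. The acinar entry with the most signal, 17.6 kb from Amy2a5, a pancreatic amylase gene, had 0.660 and 0.662, was repeat-masked throughout and had a centre found 23 times in the reference. All shares of these lists lay between 0 and 2.04%.

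By position the CAST-only regions resembled all merged regions more than the shared ones. Within 3 kb of a transcription start site lay 1379 members (22.0%), against 21.5% of all regions and 41.0% of shared regions. A further 297 (4.73%) were in exons, 2222 (35.4%) in introns and 2381 (37.9%) between genes, against 3.71%, 34.9% and 39.9% of all regions. The median distance to a start site was 10.1 kb for members, 12.7 kb for all and 5.95 kb for shared regions. The share within 3 kb was 14.5% when protein-coding genes alone were counted. The members' median width was 200 bases, as for all regions, and that of shared regions was 1144.

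These properties were compared with the single-strain regions of the other 7 strains, with the strain as the unit. The share within 3 kb was 22.0% in CAST and 20.8% ± 3.01 (SD, n = 7) in the others (exact permutation test, two-sided, p = 1.00). The intergenic share was 37.9% against 44.1% ± 7.54 (SD, n = 7; exact permutation p = 0.750), and the median distance was 10.1 kb against 12.6 kb ± 3.16 (SD, n = 7; exact permutation p = 0.375). Median GC content was 46.5% against 45.8% ± 1.15 (SD, n = 7; exact permutation p = 0.750). With 1 strain against 7 the smallest p that this test allows is 0.125, so none could pass 0.05, and each CAST value lay inside the range of the other strains.

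Repeated sequence was more common among the members than among all regions, but not more than in single-strain regions of the other strains. The mean share of repeat-masked bases in the central 200 was 29.0% in CAST-only regions. In the single-strain regions of the other strains it was 28.8% ± 9.43 (SD, n = 7). More than 50% of the central 200 bases were repeat-masked in 1482 members (23.6%), against 15.6% of all regions, 4.26% of shared regions, 38.3% of PWK-only and 9.97% of WSB-only regions. The central 31 bases occurred more than once on chromosomes 1 to 19 and X in 1527 members (24.3%), against 12.7% of all regions and 3.44% of shared regions. This share was 48.1% for PWK-only, 43.3% for 129-only, 39.9% for NOD-only and 29.0% for AJ-only regions. For B6-only, NZO-only and WSB-only regions it was 21.3%, 12.3% and 9.35%. At least 10 copies were found for 929 members (14.8%). Among the 134 members above 0.564 the share with more than 1 copy was 20.1%. Of the members with a centre found once, 32.7% were intergenic, and their median distance to a start site was 9.49 kb.

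**Figure D3:**
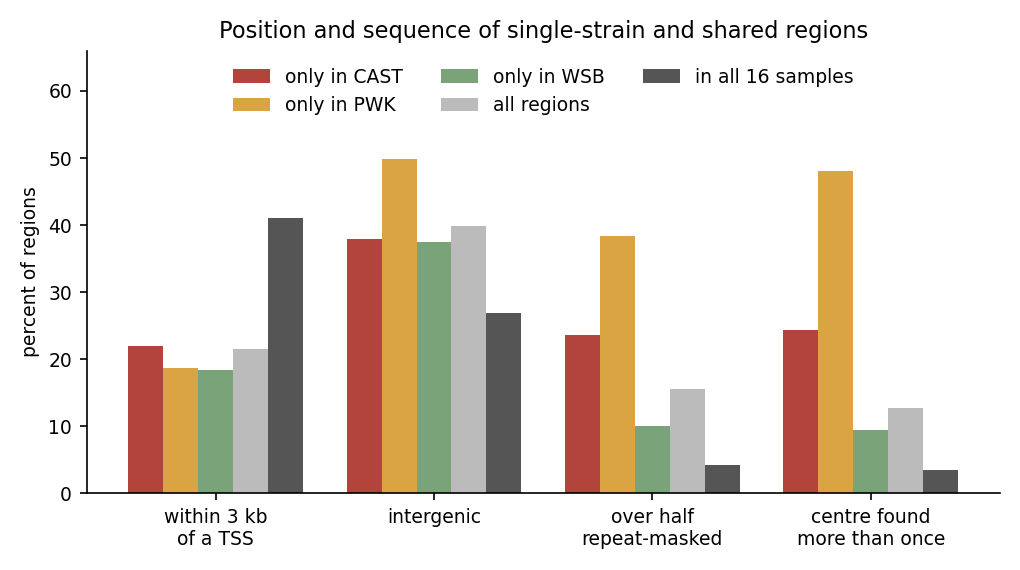
Percent of regions within 3 kb of a transcription start site, between genes, with more than 50% of the central 200 bases repeat-masked, and with central 31 bases found more than once in the reference, for 5 sets of regions. CAST-only regions (red) lie between PWK-only and WSB-only regions in both measures of repeated sequence, at 23.6% and 24.3%.

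The 15 motifs were searched in the central 200 bases on both strands. The NEUROD E-box was found in 1331 members (21.2%), against 18.6% of all, 16.2% of shared, 17.4% of PWK-only and 21.3% of WSB-only regions. AP-1 was found in 574 (9.14%), against 13.4% of all, 8.34% of shared, 10.0% of PWK-only and 28.2% of WSB-only regions. The CREB palindrome (TGACGTCA) was in 41 members (0.653%), against 0.278% of all, 0.528% of shared, 0.870% of PWK-only and 0.282% of WSB-only regions. The SP/KLF box (GGGCGG) was in 5.26% and the CTCF core (AGGGGGC) in 3.20%, against 4.09% and 2.49% of all regions and 13.4% and 5.22% of shared regions. FOXA (TGTTTAC) was in 4.62%, against 4.50% of all. Such matches are descriptions of the reference sequence and not sites of binding.

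By the rule, no member overlapped a peak of another strain. The nearest such peak was a median of 2200 bases away, 1859 members (29.6%) had one within 1 kb, and 638 (10.2%) had none within 10 kb. When members with gaps of up to 10 kb were joined, 81.1% of members were alone and 230 lay in 30 runs of 5 or more. These distances and runs were not computed for other sets of regions, so no background stands beside them. By chromosome, members were 1.10% (chromosome 18) to 2.92% (chromosome 11) of all regions.

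A small part of the genome nevertheless held dense groups. Of 2414 windows of 1 Mb with a region, 49 had 10 or more members and held 817 members (13%). Of these, 44.3% had a centre found more than once, against 21.3% of the members elsewhere. These windows were chosen by their members and were not counted for other sets of regions, so the 13% has no background. The densest window, on chromosome 10 from 33000001 to 34000000, held 60 members among 308 regions (19.5%). It covers Clvs2 and the sulfotransferase genes Sult3a1 and Sult3a2. Their median scaled signal, taken as the lower of both CAST samples, was 0.132, no PWK-only or WSB-only region lay there, and the centre of 13.3% was found more than once.

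The second window, on chromosome 3 from 91000001, held 58 members of 356 regions, around the single protein-coding gene 9130204L05Rik. It had 2 PWK-only regions, and 18 of its members had a centre found more than once. The window on chromosome 9 from 88000001 held 48 members of 347 regions, at the tandem Trim43 genes and at Bcl2a1a and Bcl2a1d, of the anti-apoptotic BCL2 family, and 83.3% had a repeated centre. The window on chromosome 1 from 93000001 held 33 of 220, of which 19 formed 1 run of 74.2 kb over Gal3st2 and Gal3st2b, sulfotransferases that modify galactose, and 78.8% had a repeated centre. The window on chromosome 5 from 11000001, with Speer1 and predicted genes, held 26 of 418 beside 27 PWK-only regions, and 84.6% had a repeated centre. Near-identical copies can exchange reads, so the place of such regions among the copies is uncertain. The median signals of these windows, again the lower of both CAST samples, were 0.103 to 0.132, and that of all members was 0.140.

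The regions around the members were read out with signals that the rule did not use. In each of the 40930 shared regions, the log2 of summit signal plus 1, centred on the sample median, was compared between CAST and the mean of the other 7 strains with limma, with strain and sex as terms. After Benjamini-Hochberg adjustment 2793 shared regions (6.82%) were higher in CAST and 5633 (13.8%) were lower. Of the 4355 shared regions that were the nearest to a member, within 100 kb, 478 (11%) were higher and 429 (9.85%) were lower. Their median difference was 0.132 on the log2 scale, against -0.0163 over all shared regions. The share higher was above, and the share lower below, that over all shared regions. These are counts, with no test of the set.

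The shares followed distance. Under 2 kb from a member 13.2% of 538 shared regions were higher in CAST and 7.06% lower, at 10 to 50 kb 8.94% and 9.52% of 7676, and beyond 100 kb 5.50% and 16.4% of 24110. By the number of members within 100 kb, the share higher was 7.37% beside 1 member and 10.8% beside 2 to 4. It was 21.8% beside 5 to 9 (211 regions) and 29.2% beside 10 or more (24 regions). The share lower was 11.3%, 7.58%, 6.16% and 16.7% in the same order. In the densest window, on chromosome 10, 0 of 8 shared regions were higher and 3 lower. The windows on chromosomes 3, 9 and 1 had 1 of 1, 5 of 23 and 2 of 27 higher, and 0, 3 and 1 lower. With each distance bin the share that was higher fell and the share that was lower rose. Of the 1938 shared promoters nearest to a member, 9.08% were higher and 7.12% lower, against 5.86% and 9.73% of all 16768. Promoters were also assigned by gene. Of 3123 shared promoters of genes with a member, 5.70% were higher and 8.68% lower, and of 8625 promoters of genes without one, 4.27% and 7.44%. By gene, the median log2 difference was lower with a member (0.0448) than without one (0.114), unlike the medians by distance. The neighbours come from the same libraries as the members.

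The calls rested on both CAST samples. Without the CAST female 518 shared regions were higher and 1795 lower, with 2.27% higher beside members, and without the CAST male 415 and 1967, with 2.09%. Without the NZO male 4841 were higher and 18.8% beside members. On the 8 strain means, where the spread is that between strains, 56 were higher and 430 lower. Beside members 8 of 4355 were higher there (0.184%), against 0.137% of all. Without centring the median difference was 0.7686 on the log2 scale, 20428 regions were higher and 981 lower, and the share beside members was 60.7% against 49.9% of all. In all these settings the share beside members was above that of all shared regions.

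**Figure D4:**
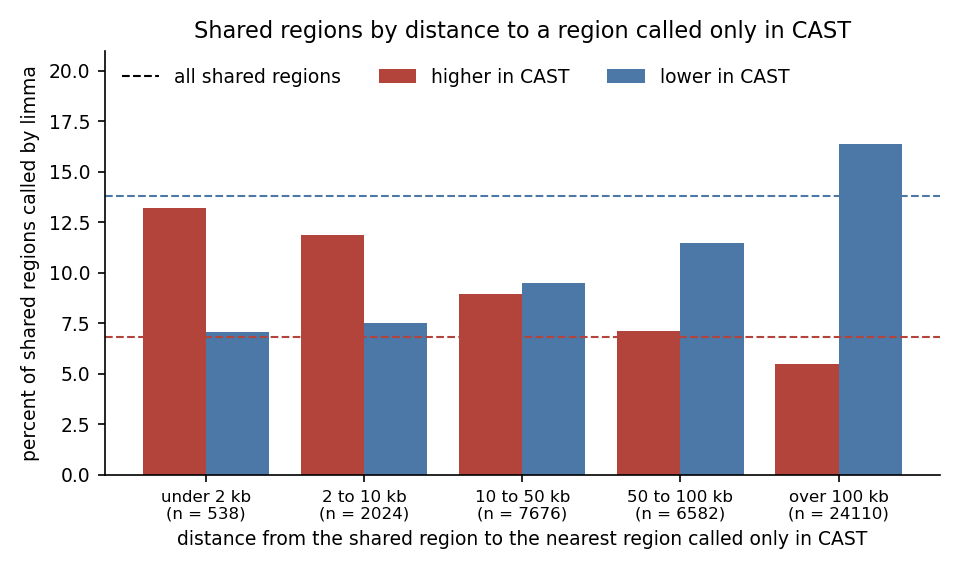
Percent of shared regions that limma called higher (red) or lower (blue) in CAST than in the mean of the other 7 strains, by distance to the nearest CAST-only region, with dashed lines at the shares over all 40930 shared regions. The share higher falls from 13.2% to 5.50% and the share lower rises from 7.06% to 16.4% with distance.

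The called neighbours with the largest gains in CAST stood at gene copies and in distal sites. The shared region over the promoter of Dynlt1a, a dynein light chain gene, 25.5 kb from a member, had a scaled signal of 11.4 in the CAST female and 9.29 in the CAST male, and 1.14 (WSB male) to 3.19 (129 female) in the other 14, with a median of 1.47. The groups did not overlap, and the log2 difference was 2.74 ± 0.20 (SE; limma, Benjamini-Hochberg adjusted p = 1.61e-06). The promoter of its near-identical copy Dynlt1b, 16.1 kb from the closest of 4 members, had 11.8 and 10.4 in CAST, and 1.35 to 8.41 elsewhere, at 2.13 ± 0.26 (SE; limma adjusted p = 9.26e-05). Reads of the Dynlt1 copies cannot be told apart with certainty. At Ighv4-2, a variable segment of the immunoglobulin heavy chain, a region 1.45 kb from the closest of 8 members had 4.75 and 5.37 against 0.200 to 2.59, again with no overlap.

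PWK shared part of some gains. In an exon of the noncoding gene Gm48479, 92.5 kb from Fam84a, CAST had 4.09 and 4.92, PWK had 4.94 and 4.59, and the other 12 samples had 0.419 to 1.02, so that the groups overlapped through PWK alone. The region in an exon of Wdfy3, an autophagy scaffold, had 4.03 and 4.78 in CAST, 3.32 and 1.72 in PWK and at most 2.25 (B6 male) elsewhere, at 2.19 ± 0.31 (SE; limma adjusted p = 0.000268). Near Fam189a2, CAST had 1.85 and 2.3, PWK had 1.15 and 0.781, AJ had 1.12 and 1.04, and the remaining samples had 0.193 to 0.455. It was an intergenic site, 15.6 kb from a member.

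The largest losses beside members left CAST with little signal. In an intron of 1700001L19Rik, CAST had 0.189 in the female and 0.0956 in the male and the other 14 samples had 0.968 (PWK female) to 2.33 (NZO male), a log2 difference of -3.42 ± 0.27 (SE; limma adjusted p = 3.20e-06). In an intron of Msl2, of a histone acetyltransferase complex, CAST had 0.236 and 0.132 against 0.344 (PWK male) to 5.65 (NZO male). Near Cckar, the cholecystokinin A receptor gene, CAST had 0.113 and 0.125 against 0.375 (PWK male) to 1.59 (B6 male), and a member lay 433 bases away. In an exon of Prrc1 a region 429 bases from a member had 0.151 and 0.125 against 0.281 to 3.15. The regions in an exon of Adamtsl1 (nearest protein-coding start Saxo1) and 400 kb from Rgmb had 0.113 to 0.292 in CAST and medians of 2.69 and 0.975 elsewhere. CAST was below all 14 other samples at each of these 6 regions. At 4 of them, those near Prrc1, Msl2, Cckar and 1700001L19Rik, a PWK sample was the next lowest. Both PWK samples were the next lowest only near Prrc1 and Msl2. The Cckar region had 0.758 in the PWK female, above both 129 samples (0.655 and 0.739). In 1700001L19Rik the PWK male had 1.75, above the median of 1.60 over the other 14 samples.

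**Figure D5:**
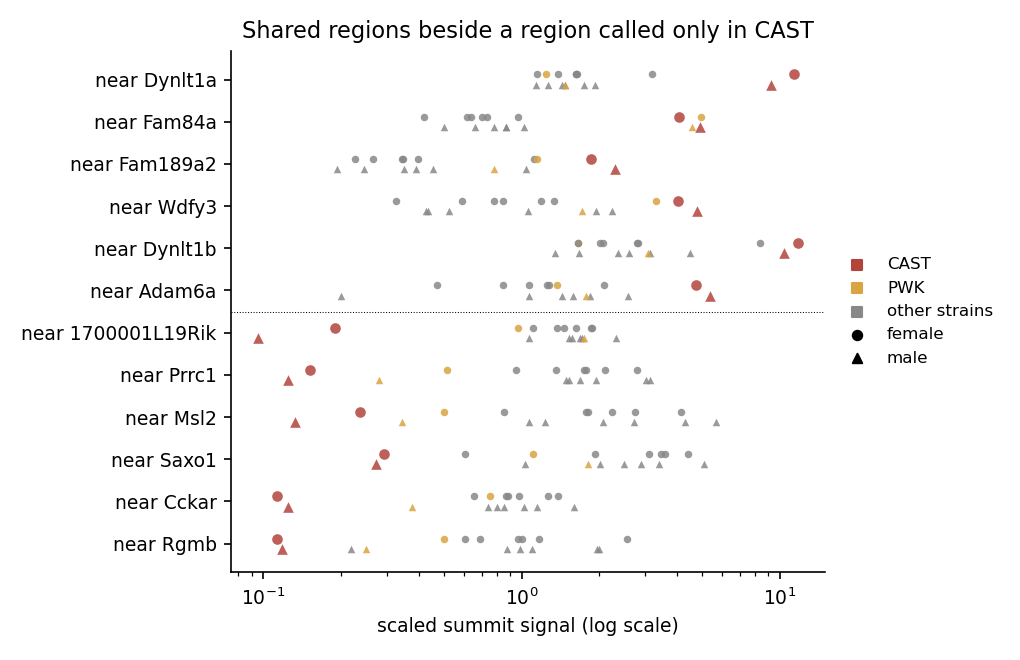
Scaled summit signal, on a log scale, of every sample in the 6 shared regions with the largest gain (top) and the 6 with the largest loss (bottom) in CAST among those nearest to a CAST-only region, named by the nearest protein-coding gene (the Ighv4-2 region as Adam6a, that in Adamtsl1 as Saxo1). Both CAST samples (red) lie outside the range of the other 14 in every region except the one near Fam84a, where PWK (yellow) reaches the same level.

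Among listed genes, shared regions beside a member that were called are named here after their values were seen. Their counts stand beside 11% higher and 9.85% lower over all 4355 neighbours. Of 18 such neighbours at beta cell ion channels, 6 were higher in CAST and 1 lower, while of all 215 shared regions of these genes 23 were higher (10.7%) and 25 lower (11.6%). An intronic region of Abcc8, which encodes the sulfonylurea receptor of the beta cell potassium channel, had 4.94 and 4.65 in CAST and 1.06 to 4.76 (129 female) elsewhere, so the groups overlapped, at 0.86 ± 0.19 on the log2 scale (SE; limma adjusted p = 0.00688). The member beside it, 3.61 kb away, had 0.170 and 0.162. A second Abcc8 region, 1.54 kb from a start site, had 0.887 and 0.956 against 0.218 to 0.793 (129 female), with no overlap. Kcnma1 had 2.09 and 1.59 in CAST against 0.453 to 1.39, Cacna1c, an L-type calcium channel, had 1.92 and 2.12 against 0.782 to 1.78, and Kcnc1 had 1.00 and 1.01 against 0.309 to 0.846. Cacnb3 rose by 1.42 on the log2 scale (SE 0.27), although the NZO male, at 2.53, was above both CAST samples. Kcnb2 was lower in CAST, at 0.179 and 0.309 against 0.222 to 1.12.

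Of 21 neighbours at beta cell hormone and identity genes 2 were higher and 0 lower with limma (7 and 0 at an unadjusted p under 0.05), and of all 207 shared regions of the list 25 were higher (12.1%) and 15 lower (7.25%). At Glp1r, the receptor of the incretin GLP-1, an intronic region 36.2 kb from a member had 2.26 and 1.85 in CAST and 0.561 to 1.79 (129 female) elsewhere, at 1.26 ± 0.19 on the log2 scale (SE; limma adjusted p = 0.000445). Near Pcsk2, a prohormone convertase, the values were 2.88 and 2.60 against 1.15 to 2.56 (B6 female). At exocytosis genes 1 of 14 was higher, in an intron of Cadps, at 1.81 and 2.15 against 0.473 to 1.45, and 0 were lower with limma (5 higher and 1 lower at an unadjusted p under 0.05).

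Diabetes association genes had 5 higher and 2 lower of 34, and 26 higher (7.58%) and 50 lower (14.6%) of all 343 shared regions of the list. The higher were both Abcc8 regions, already counted with the channels, 2 at Ankrd55 and 1 at C2cd4b, and the lower were at Ube2e2 and St6gal1. Insulin and IGF signalling had 1 higher, at Rptor, and 2 lower of 11, while of all 142 shared regions of that list 17 were higher (12.0%) and 7 lower (4.93%). The promoter of Igf1r, the IGF-1 receptor gene, had 0.340 and 0.382 in CAST against 0.581 to 1.70 (log2 difference -1.47 ± 0.22, SE; limma adjusted p = 0.000399), with a member 4.58 kb away, and an intron of Insr, the insulin receptor gene, had 4.50 and 5.07 against 5.61 to 9.84. In neither did the groups overlap. Metabolic genes had 1 of 7 higher, assigned to Pfkp from 408 kb away, and 1 lower, 2.74 kb from a start of Acacb. Clock genes had 1 of 7 higher (Nr1d1) and 0 lower with limma (2 and 0 at an unadjusted p under 0.05). Acinar genes had 1 of 4 lower, assigned to Amy2a5 from 1390 kb away, and endothelial genes 1 of 3 higher (Pecam1). Of the 6 neighbours of alpha, delta and PP cell genes 0 were called by limma after adjustment, with 1 higher at an unadjusted p under 0.05. Duct, leukocyte and fibroblast genes had 1, 1 and 2 neighbours, with 0 called by limma before or after adjustment. Over all shared regions of these lists, 5 of 11 leukocyte regions (45.5%) and 5 of 20 acinar regions (25.0%) were lower in CAST. The share over all shared regions was 13.8%, and 0 regions of either list were higher. Endothelial genes, with 4 of 26 lower (15.4%) and 1 higher (3.85%), lay near 13.8%. Alpha, delta and PP cell genes had 12 of 65 lower (18.5%) and 5 higher (7.69%). Duct genes had 1 of 16 lower (6.25%) and 0 higher, and fibroblast genes 1 of 26 lower (3.85%) and 3 higher (11.5%). The part of these cell types in the gains and losses beside members was not tested.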

How the data were processed

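ATAC-seq was performed by the authors on 50 islets per sample of 16 samples. Reads were trimmed by the authors using cutadapt (2.0) and mapped to mm10 using Bowtie2 (2.3.4.1). Unmapped, mitochondrial and duplicate reads were removed using SAMtools and Picard (2.9.2), and MOSAiCS peaks were called sample by sample (FDR 0.05), per the labels, the submitters' processing notes and the study's methods. The deposited lists give the summit signal and the mean signal of each peak, unscaled, and the deposited strain lists give the −log10 of the IDR between female and male. The files do not name that column. It was read as the IDR by its place, and the score of 100% of 694509 peaks followed from it within 5 units, against 33.1% from the column before it. A shift of read ends for the transposase was not given in the sources used here, and read depth per sample is unknown from the lists, so no counting intervals are given.

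Peaks that shared at least 1 base were merged. The GENCODE M21 annotation of GRCm38 gave each region its class, and regions were assigned to the nearest protein-coding start site, and sequence was read from RefSeq GRCm38.p6. Samples were grouped by the strain in the labels, with sex as a covariate, and the labels name no batch. Shared regions were tested with limma (3.58.1, R 4.3.3) on log2(summit signal + 1), CAST against the mean of the other 7 strains, and called at a Benjamini-Hochberg adjusted p under 0.05. The limma code was checked on simulated data. Strain values were compared by exact permutation (scipy 1.17.1). With 1 sample per sex and strain, p-values measure only the spread between these samples.

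Regions named are the 12 members highest by the lower of both CAST signals, the 8 highest within 1 kb of a protein-coding start, up to 4 per gene list, the 6 largest gains and 6 largest losses among called neighbours, and the 5 windows of 1 Mb with the most members. Of the list members some are given only in counts. The members, gene lists and motifs were chosen with earlier results of these data known. The copy search of the central 31 bases was added after the data were seen. Chromosomes X and Y were left out of the main results. Some items of these lists are not reported here.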

Additional observations from a re-analysis of the deposited data

How the results depend on the processing

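The number of CAST-only regions stayed within 1.5 times of 6279 with touching peaks merged, with peaks up to 200 bases apart merged, with no other peak within 1 kb and with chromosome X added, and moved to 2769 with equal lists, 2769 in the upper 50% of every list, 29012 with a peak in at least 1 CAST sample and 12684 in strain lists at an IDR of 0.05. Leaving out 1 of the other 14 samples gave 6312 to 8238, the highest without the WSB female. The share within 3 kb of a start site was 20.4% with no other peak within 1 kb, 25.3% in the IDR lists, 9.70% within 1 kb, 14.5% for protein-coding genes alone and 23.7% for members with a centre found once, and 21.6% to 22.6% with a sample left out. The intergenic share was 33.0%, 39.5%, 30.7% and 32.7% with equal lists, no other peak within 1 kb, IDR lists and single centres (35.4% to 38.1% with a sample left out), the median distance 10.8, 8.98 and 9.49 kb in the last 3 of these (9.74 to 10.2 kb), and the median GC content 47.0% with equal lists, IDR lists and single centres (46.0% to 46.5%). Touching peaks and single centres were chosen after seeing the data.

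Of 15 alternatives, 12 kept the number of shared regions higher in CAST and 12 the number lower within 1.5 times. The exceptions were no centring (20428 higher, 981 lower), strain means (56 and 430), leaving out NZO (4717 higher) and regions called in both CAST and at least 10 other samples (3641 lower). With a sample left out the numbers were 415 to 4841 and 1795 to 7648. The share higher beside members was 12.2% with a pseudocount of 5, 60.7% without centring, 5.83% with regions of at least 10 other samples, 9.83% with the mean signal and 0.184% on strain means. It was 12.1%, 8.86%, 8.36%, 18.4%, 12.1% and 9.48% without 129, AJ, NOD, NZO, PWK and WSB, and 2.09% to 18.8% with a sample left out. It was above the share over all shared regions in every setting, by 1.22 to 2.06 times. On strain means this rested on 8 of 4355 neighbours, against 56 of 40930 shared regions. All settings drew on the same libraries. The cause of the moves between settings was not tested. The labels give no replicate numbers, so samples could be matched across strains by sex alone. Sex, which each strain has once, was a term, and without it 7.14% of shared regions were higher, 14% lower, and 11.4% higher beside members.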

Other observations

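Some genes outside the lists held many CAST-only regions, against 1.75% of all regions. Vmn2r45 and Vmn2r101, of the vomeronasal receptors, had 13 of 112 and 11 of 27 regions, Scgb2b7, an androgen-binding protein gene, had 11 of its 43 regions, and Gal3st2 had 11 of 20. Snrpn, an imprinted gene of chromosome 7, had 15 of 246 regions (6.10%), and Adam6a, in the immunoglobulin heavy chain locus, had 16 of 526 (3.04%). These genes were chosen for their counts after these were seen, and no test was made.

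The 4707 regions called in both CAST samples and in 1 of the other 14 were shared with WSB in 46.3%, with PWK in 25.9%, with NZO in 13.8% and with the other 4 strains in 1.64% to 5.84%. The WSB female alone, which had the longest list, made up 1937 of them and the WSB male 242.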
